A study of Mus musculus with 8 samples.

Results

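Neurons keep calcium low in the cytosol with stores, pumps and exchangers, and the genes of this machinery were examined in the dentate gyrus of mice that had or lacked Cav3.1, a T-type calcium channel. The family was given as 10 genes: the release channel genes Itpr1, Ryr1, Ryr2 and Ryr3, the store pump gene Atp2a2, the plasma membrane pump genes Atp2b1, Atp2b2 and Atp2b4, and the sodium-calcium exchanger genes Slc8a1 and Slc8a2. A probe counted as a member if its gene symbol in the platform annotation equalled one of these names, and for a gene with several probes the one with the highest mean spot intensity was kept. This gave 13 of the 23473 probes on the array, for 9 of the 19321 genes named in the annotation. Itpr1 had no probe under that symbol in the annotation used here and was not analysed here. Of the 9 genes, 6 had 1 probe and 3, Ryr2, Ryr3 and Slc8a1, had several. All 9 probes kept were detected on all 8 arrays, so a filter on dim probes removed none of them.

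The samples were total RNA of the dorsal dentate gyrus of male C57BL/6J mice, 8 to 12 weeks old. The WT group and the Cav3.1 KO group had 4 arrays each, and both groups carry the same strain label. Cav3.1 is the pore subunit encoded by Cacna1g, and the sources used here do not say how its gene was disrupted. Nothing in the labels says that each array came from a different animal, so the p-values reflect variation among these arrays, some of which may be technical. Each array was hybridised with RNA in 1 colour, and values are log2 spot intensities after background correction and quantile normalisation. Differences are Cav3.1 KO minus WT, and a gene was called if its limma p, adjusted over all 21150 probes tested, was under 0.05.

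Calcium enters the cytosol of a neuron through channels of the surface membrane and through release channels of the endoplasmic reticulum. The release channels are the IP3 receptors, opened by a lipid-derived messenger, and the ryanodine receptors, opened by calcium itself. The SERCA pump encoded by Atp2a2 refills the store, while the PMCA pumps of the Atp2b genes and the exchangers of the Slc8a genes move calcium out of the cell. The pumps bind calcium tightly and spend ATP, and the exchangers have a high capacity and draw on the sodium gradient. In the dentate gyrus the principal cells are granule neurons, which are known for sparse firing and strong calcium buffering by calbindin.

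The arrays differed in ways that bear on these values. The file headers give the lines that relate the scan gains, and their slopes fell into 2 sets. The slope between gains 1 and 3 was 0.244 to 0.247 on WT replicates 1, 2 and 4 and Cav3.1 KO replicate 1, and 0.235 to 0.236 on WT replicate 3 and Cav3.1 KO replicates 2, 3 and 4. The scan-gain sets thus held 3 WT and 1 Cav3.1 KO array and 1 WT and 3 Cav3.1 KO arrays, and their mean blank-spot intensities did not overlap, at 53.0 to 56.2 and 59.7 to 63.4. WT replicate 3 and Cav3.1 KO replicate 4 were also the 2 arrays whose chip numbers lay apart from the others. They are called the higher-numbered chips here, and the rest the lower-numbered chips. No header gives a date for them. The targeted gene Cacna1g differed by -0.08 (SE 0.0508, limma adjusted p 0.816), with overlapping groups and spots at 1.66 times the blank mean on average. The sources used here do not place its probe relative to the deleted part, so it does not check the genotype. Mean levels of granule neuron markers ranged from 6.74 to 6.90 on the WT arrays, with 6.58 to 6.75 on the Cav3.1 KO arrays. Of 11 marker lists, the means of 3 did not overlap between the groups, and each of these gaps was lost when 1 gene was left out. Without Gjb6 (9.53 to 9.70 on the WT arrays, against 9.93 to 10.09) the astrocyte means overlapped, at 7.75 to 7.86 against 7.79 to 7.84. Without Cldn5 (9.58 to 9.79, against 8.67 to 9.11) the endothelial and pericyte means overlapped, at 7.44 to 7.55 against 7.40 to 7.57. Without Calb1, which is also one of the buffers below, the cerebellar means overlapped, at 6.36 to 6.41 against 6.41 to 6.46. Some other lists parted only with 1 gene left out. Granule neuron markers did so without Tdo2 (6.85 to 6.86 on the WT arrays, against 6.63 to 6.76) or without Dsp. CA pyramidal markers did so without Wfs1 (7.71 to 7.86, against 7.48 to 7.70) and microglia markers without C1qa (7.46 to 7.55, against 7.30 to 7.40). Taken singly, the granule neuron markers C1ql2 (8.62 to 8.82 in WT, against 8.08 to 8.19) and Plk5 (6.11 to 6.25, against 5.95 to 5.99) parted the groups. The CA pyramidal marker Nptx1 did too (8.98 to 9.24, against 8.69 to 8.84). All other genes of the granule neuron, CA pyramidal and microglia lists overlapped between the groups. Choroid plexus and ependymal markers were far lower on Cav3.1 KO replicate 4, at 6.36, than on the other 3 Cav3.1 KO arrays, at 8.10 to 8.93, and the transthyretin gene Ttr stood at 7.49 there against 13.98 to 14.97. Among the WT arrays they were lowest on WT replicate 3, at 7.54 against 8.33 to 9.06, with Ttr at 12.25 against 14.13 to 15.16. Both low arrays are the higher-numbered chips. In dissected tissue, fewer cells of a type and less RNA per cell cannot be told apart.

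None of the 9 genes was called between the genotypes, in a comparison that called 0.288% of all probes (61 of 21150, limma), 0.199% higher in Cav3.1 KO and 0.0898% lower. At an unadjusted limma p under 0.05 there were also 0 of 9, against 8.10% of all probes, and the smallest two-sided exact permutation p of a single gene was 0.0857, for Ryr2. The values of the groups overlapped for all 9, while 4.95% of all probes separated them. Of the 9 differences 4 were above 0 and 5 below, with a median of -0.004 beside -0.001 over all probes tested. The largest was 0.15, for Atp2b2. The 95% interval of each difference included 0, and the widest, that of Slc8a1, ran from -0.36 to 0.40, which is 0.777-fold to 1.32-fold on the normalised scale. The test thus gives no call for any of these probes, which does not show that their levels were equal.

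**Figure D1:**
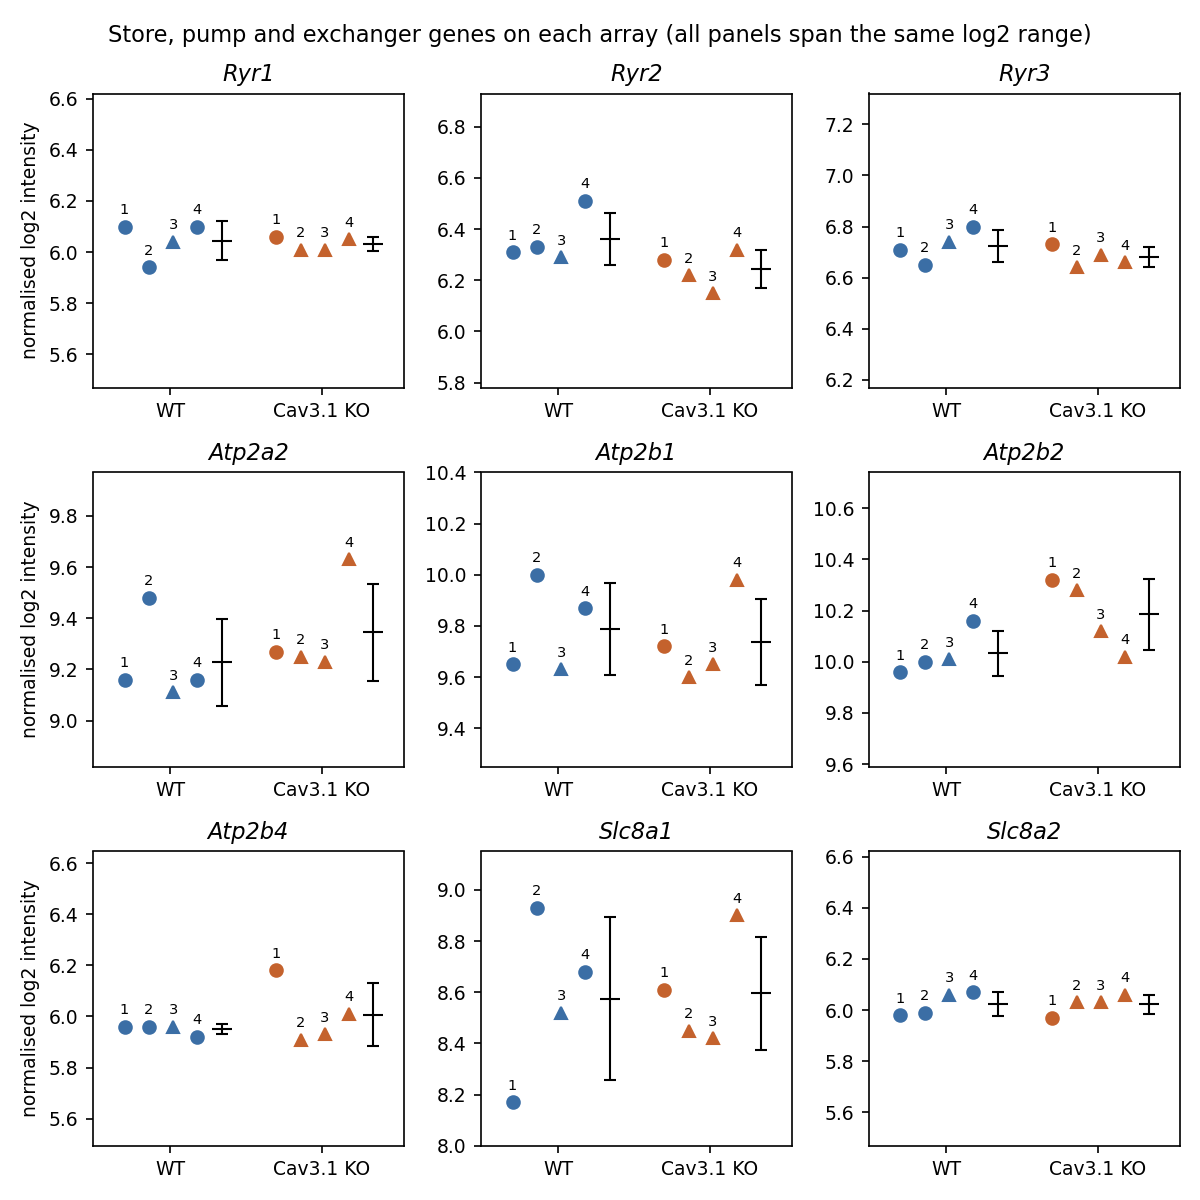
Normalised log2 intensity (vertical axis, the same span in every panel) of the 9 genes on each array, with the replicate number above each point, circles for the first and triangles for the second scan-gain set, and bars for the mean and SD of 4 arrays. The groups overlap in every panel, and Atp2a2, Atp2b1 and Slc8a1 are highest on replicate 2 of WT and replicate 4 of Cav3.1 KO.

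The ryanodine receptor genes were measured close to background. Ryr1, which encodes the receptor best known from skeletal muscle and also found in neurons, gave a spot signal of 1.19 to 1.29 times the blank level of each array, the mean of its blank spots. Its values were 6.10, 5.94, 6.04 and 6.10 in WT and 6.06, 6.01, 6.01 and 6.05 in Cav3.1 KO. The Cav3.1 KO arrays all lay within the range of the WT arrays. They differed by -0.02 (SE 0.0395, 95% interval -0.11 to 0.08), with a limma adjusted p of 0.992. The offset added in background correction shrinks the differences of such dim probes, and after plain subtraction of the blank spots the interval was wider, -0.48 to 0.38.

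Ryr2, the receptor known from heart muscle and widely expressed in brain, had the lowest difference of the family. It stood at 6.31, 6.33, 6.29 and 6.51 in WT and at 6.28, 6.22, 6.15 and 6.32 in Cav3.1 KO. Only Cav3.1 KO replicate 4 reached into the WT range, and WT replicate 4 lay above all other arrays. The difference was -0.12 (SE 0.0574, 95% interval -0.25 to 0.01), and its limma p was 0.0716 before and 0.683 after adjustment. On the blank-subtracted scale it was -0.36 (interval -0.74 to 0.02, limma adjusted p 0.720), and in the deposited value table -0.41 (interval -0.78 to -0.04, limma adjusted p 0.623). It was -0.11 and -0.06 within the first and second scan-gain sets. There 1 array is alone in a group and was assumed to vary like the others. Within the lower-numbered chips the difference was -0.17. Without WT replicate 4 it was -0.07. The second Ryr2 probe was dimmer, at 1.16 times the blank level on average, and differed by -0.02 (SE 0.0252).

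Ryr3, the receptor gene described in hippocampus and some smooth muscle, had values of 6.71, 6.65, 6.74 and 6.80 in WT and 6.73, 6.64, 6.69 and 6.66 in Cav3.1 KO. The groups were interleaved. The difference was -0.04 (SE 0.0381, 95% interval -0.13 to 0.05, limma adjusted p 0.931), between -0.07 without WT replicate 2 and -0.02 without WT replicate 4, and its spots were 1.77 to 2.01 times as bright as the blank level. A second, dimmer Ryr3 probe at 1.18 times the blank level differed by 0.02 (SE 0.0430). Over the 3 ryanodine receptor genes the differences were thus between -0.12 and -0.02, none past the test.

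Atp2a2 encodes the SERCA pump that loads the endoplasmic reticulum, and its probe was bright, at 9.16 to 14.5 times the blank level. It read 9.16, 9.48, 9.11 and 9.16 in WT and 9.27, 9.25, 9.23 and 9.63 in Cav3.1 KO. In each group 1 array stood well above the other 3, replicate 2 of WT and replicate 4 of Cav3.1 KO. Except for WT replicate 2, every WT array lay below every Cav3.1 KO array. The difference was 0.12 (SE 0.112, 95% interval -0.14 to 0.38) with a limma adjusted p of 0.940. Leaving out Cav3.1 KO replicate 4 gave 0.02, and leaving out WT replicate 2 gave 0.20. Leaving out both, an alternative chosen after seeing the data, gave 0.11 (SE 0.0307, 95% interval 0.03 to 0.18). Its limma p was 0.012 before and 0.301 after adjustment. Within the lower-numbered chips, which leave out Cav3.1 KO replicate 4 and WT replicate 3, the difference was -0.02. Within the scan-gain sets it was 0.004 and 0.26.

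Atp2b1 encodes the most widely expressed plasma membrane calcium pump. Its values were 9.65, 9.999, 9.63 and 9.87 in WT and 9.72, 9.60, 9.65 and 9.98 in Cav3.1 KO, again highest on replicate 2 of WT and replicate 4 of Cav3.1 KO. The groups covered nearly the same range. The difference was -0.05 (SE 0.107, 95% interval -0.30 to 0.19, limma adjusted p 0.986). It was -0.12 and 0.11 within the scan-gain sets and -0.18 within the lower-numbered chips, so its sign differed between these subsets.

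Atp2b2, a fast plasma membrane pump of neurons and hair cells, had the highest difference of the 9 genes. It read 9.96, 10.004, 10.01 and 10.16 in WT and 10.32, 10.28, 10.12 and 10.02 in Cav3.1 KO. Cav3.1 KO replicates 1 and 2 lay above all WT arrays, while replicates 3 and 4 lay below WT replicate 4. The difference was 0.15 (SE 0.0739, 95% interval -0.02 to 0.32, 1.11-fold), and its limma p was 0.0714 before and 0.682 after adjustment. With the scan-gain set as a block, an alternative chosen after seeing the data, it was 0.21 (SE 0.0814, interval 0.02 to 0.40) and the limma p was 0.0377 before and 0.463 after adjustment. Within the scan-gain sets it was 0.28 and 0.14, within the lower-numbered chips 0.20, and in the value table deposited by the authors 0.06. With arrays scaled to their median in place of quantile normalisation it was 0.06, and with scaling to their 75th percentile 0.09.

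Atp2b4, a pump gene with a known role in smooth muscle, erythrocytes and sperm, was at 1.12 to 1.30 times the blank level. It read 5.96, 5.96, 5.96 and 5.92 in WT and 6.18, 5.91, 5.93 and 6.01 in Cav3.1 KO. Cav3.1 KO replicate 1 stood apart from the other 7 arrays. The difference of 0.06 (SE 0.0577, 95% interval -0.07 to 0.19) had a limma adjusted p of 0.943. Without Cav3.1 KO replicate 1 it was 0.00073, so the value rested on that array. It was 0.24 in the first scan-gain set, where Cav3.1 KO replicate 1 is the single array of its group, and -0.01 in the second. On the blank-subtracted scale the interval was -0.37 to 0.92, the widest of the family.

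**Figure D2:**
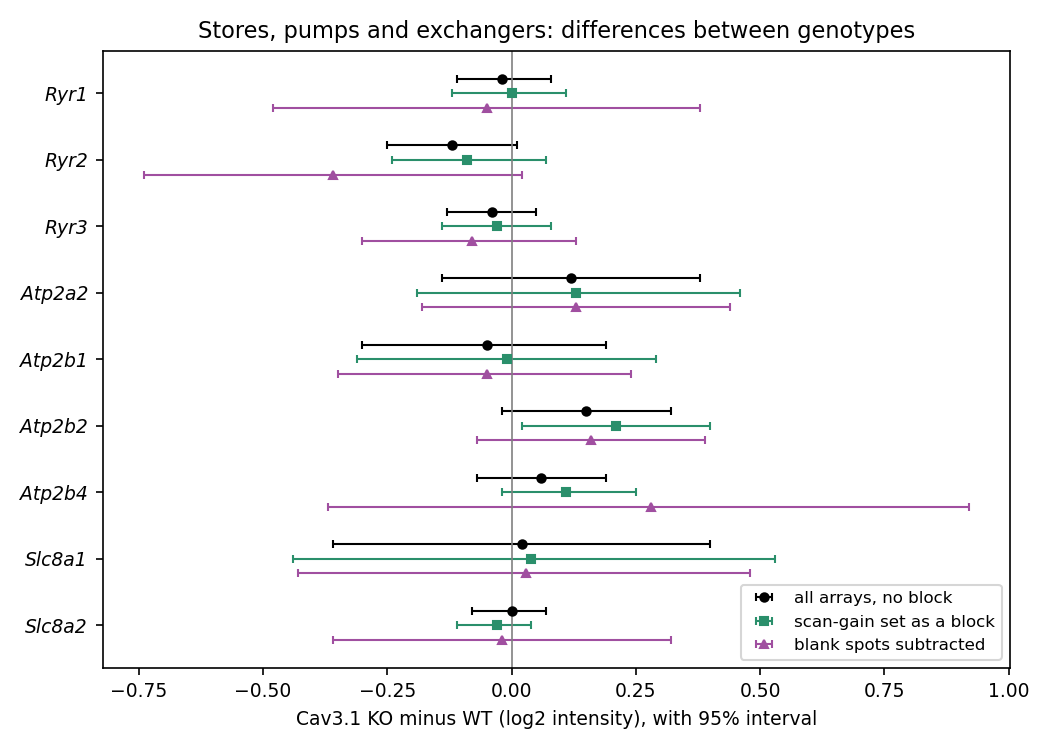
Difference between the genotypes for each gene (horizontal axis, Cav3.1 KO minus WT in log2 intensity, bars for the 95% interval) with all arrays, with the scan-gain set as a block, and with blank spots subtracted. With all arrays and no block every interval includes 0; with the block that of Atp2b2 runs from 0.02 to 0.40, and blank subtraction widens the intervals of the dim Ryr1, Ryr2, Atp2b4 and Slc8a2.

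The exchanger genes differed in how well they could be read. Slc8a1, the exchanger of heart and brain, had 3 probes at 6.87, 4.85 and 1.05 times the blank level on average. The brightest read 8.17, 8.93, 8.52 and 8.68 in WT and 8.61, 8.45, 8.42 and 8.90 in Cav3.1 KO. It spanned 0.76 over the 8 arrays, with the lowest and the highest value both in WT. The difference of 0.02 (SE 0.167, 95% interval -0.36 to 0.40) had a limma adjusted p of 0.998. The second probe read 7.94, 8.25, 8.09 and 8.14 in WT and 7.97, 8.04, 8.00 and 8.25 in Cav3.1 KO, and differed by -0.04 (SE 0.0816, interval -0.23 to 0.15). It put the WT arrays in the same order as the brightest probe and shared its highest array in Cav3.1 KO. The dimmest was detected on 5 of the 8 arrays.

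Slc8a2, the exchanger gene expressed mainly in brain, stood at 1.15 to 1.25 times the blank level on this probe. It read 5.98, 5.99, 6.06 and 6.07 in WT and 5.97, 6.03, 6.03 and 6.06 in Cav3.1 KO. The groups overlapped over nearly their whole range, with a difference of -0.00397 (SE 0.0324, interval -0.08 to 0.07, limma adjusted p 0.998) and an interval of -0.36 to 0.32 after blank subtraction. A dim probe does not give the abundance of the transcript.

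Most of the spread of the brighter genes ran within the groups and not between them. The genes whose spots averaged over 2 times the blank level were Atp2a2, Atp2b1, Atp2b2 and Slc8a1. Atp2a2 was higher by 0.34 on WT replicate 2 than on the other WT arrays and by 0.38 on Cav3.1 KO replicate 4 than on the other Cav3.1 KO arrays. The same steps were 0.28 and 0.32 for Atp2b1, and 0.47 and 0.41 for Slc8a1, with 0.20 and 0.25 on its second probe. Atp2b2 did not follow, at -0.04 and -0.22. Having the highest value of both groups on these arrays was shared by 3 of the 9 genes and by 8.00% of all probes tested, a pattern noticed after its values were seen.

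Correlations among these genes were not planned and use the values in which the pattern was seen, so their p-values are descriptions. Over the 8 arrays Atp2b1 and Slc8a1 had a Pearson r of 0.883 (exact permutation p 0.00228, two-sided, 0.0137 adjusted over the 6 pairs). Their Spearman rho was 0.786 (exact permutation p 0.0279, adjusted 0.167). Without the 2 arrays farthest from the median of Atp2b1, replicate 2 of WT and replicate 4 of Cav3.1 KO, r was 0.629. Over all 8 arrays, 0.251% of the probes tested had an r with Atp2b1 at least as high as that of Slc8a1. Atp2a2 had an r of 0.775 with Atp2b1 and 0.758 with Slc8a1 (exact permutation p 0.0245 and 0.0278, both 0.0556 adjusted), and a rho of 0.575 and 0.587 (exact permutation p 0.143 and 0.134, both 0.286 adjusted). Without the same 2 arrays r was -0.119 and 0.105, so both relations rested on them. Over all 8 arrays, 1.62% and 2.01% of the probes tested had an r with Atp2a2 at least as high as these genes. The 3 pairs with Atp2b2 had r between -0.307 and -0.0431 (exact permutation p 0.457 to 0.918) and rho between -0.238 and 0.180 (exact permutation p 0.582 to 0.935). Without the same 2 arrays the r of Atp2a2 with Atp2b2 was 0.822 over the other 6, so this value too turned on them. The scan-gain sets hold 4 arrays each, too few for a correlation within a set. Replicate 2 of WT and replicate 4 of Cav3.1 KO belong to different sets, and only the latter is a higher-numbered chip. The mean of the granule neuron markers was highest in each group on these 2 arrays. In WT it was 6.90 against 6.74 to 6.75, and in Cav3.1 KO 6.75 against 6.58 to 6.68. Tdo2 read 7.12 on replicate 2 of WT against 6.11 to 6.23 on the other WT arrays. Without Tdo2 the mean was 6.85 on replicate 2 of WT and 6.86 on the other WT arrays. On replicate 4 of Cav3.1 KO it was then 6.76 against 6.63 to 6.71. Leaving out Dsp instead gave 6.68 on that array and 6.69 on Cav3.1 KO replicate 1. On replicate 4 of Cav3.1 KO Dsp, at 7.12, and C1ql2, at 8.19, were at their highest in that group, and Prox1 and Plk5, both at 5.95, at their lowest. Choroid plexus and ependymal markers were at their highest in WT on the first (9.06) and at their lowest on the second (6.36). Interneuron markers were also highest on the second, at 9.15. The part of tissue content in these shared values was not tested.

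**Figure D3:**
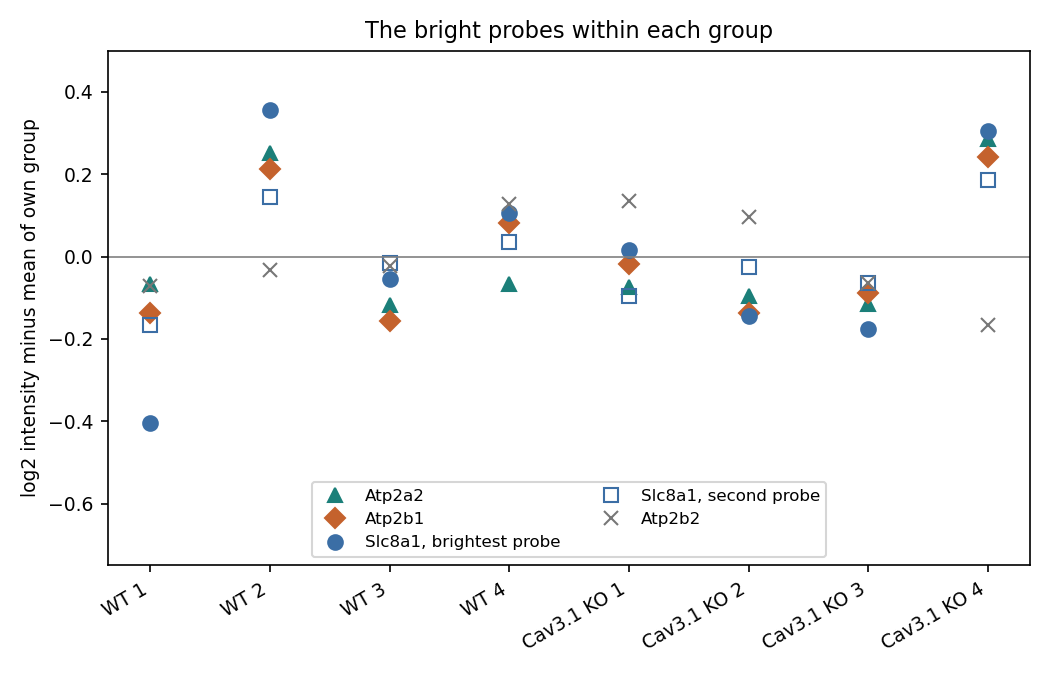
Log2 intensity minus the mean of the own group (vertical axis) on each of the 8 arrays for the probes of Atp2a2, Atp2b1, Slc8a1 and Atp2b2. Atp2a2, Atp2b1 and both Slc8a1 probes are above 0 on replicate 2 of WT and replicate 4 of Cav3.1 KO, where Atp2b2 is below 0.

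The promoter windows of the genes that did and did not share this pattern are shown for comparison. RefSeq windows of 300 bases on GRCm38.p6, from 250 before to 50 after the annotated start, were at hand for 7 of the 10 genes and not for Itpr1, Ryr3 and Atp2a2. For genes with several starts the most upstream one is printed, and each window reads in the direction of transcription. Capitals mark a GC box (GGGCGG on either strand, overlapping matches counted), the only motif found in these windows of the 4 searched.
Atp2b1, chr10:98914392-98914691, plus strand: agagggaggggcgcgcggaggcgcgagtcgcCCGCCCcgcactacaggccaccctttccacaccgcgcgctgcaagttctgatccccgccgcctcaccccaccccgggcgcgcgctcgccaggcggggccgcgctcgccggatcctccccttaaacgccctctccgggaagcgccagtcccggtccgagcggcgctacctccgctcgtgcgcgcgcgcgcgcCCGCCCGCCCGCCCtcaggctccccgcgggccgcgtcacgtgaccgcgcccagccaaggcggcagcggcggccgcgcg
Slc8a1, chr17:81738338-81738637, minus strand: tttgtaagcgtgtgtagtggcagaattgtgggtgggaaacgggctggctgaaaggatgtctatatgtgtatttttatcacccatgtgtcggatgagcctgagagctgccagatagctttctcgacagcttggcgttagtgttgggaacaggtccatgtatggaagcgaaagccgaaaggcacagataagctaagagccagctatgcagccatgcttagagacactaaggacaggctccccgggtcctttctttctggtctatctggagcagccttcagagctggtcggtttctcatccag
Atp2b2, chr6:114042031-114042330, minus strand: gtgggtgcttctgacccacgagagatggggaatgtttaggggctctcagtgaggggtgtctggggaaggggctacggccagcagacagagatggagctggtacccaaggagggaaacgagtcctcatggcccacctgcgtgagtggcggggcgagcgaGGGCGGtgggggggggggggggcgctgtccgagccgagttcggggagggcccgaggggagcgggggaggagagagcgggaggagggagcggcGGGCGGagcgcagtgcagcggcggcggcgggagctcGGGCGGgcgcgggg
The Atp2b1 window held 4 GC boxes at 79.3% G and C, the Atp2b2 window 3 at 72.7%, and the Slc8a1 window 0 at 50.7%, where the median of all 32851 windows was 52.7%. Windows of further starts, not printed, held 2 GC boxes at 58.7% and 0 at 54% for Atp2b2, and 3 at 79.3% for Atp2b1. The counts thus depend on the start chosen. A GC box stood in 35.7% of all windows, TATAAA in 13.6%, CCAAT in 37.4% and the cyclic AMP response element TGACGTCA in 1.79%, each searched on both strands. The Slc8a1 window held none of the 4 motifs, so it could share none with the window of Atp2b1 or of any other gene. The windows therefore say nothing about the r of 0.883 between Atp2b1 and Slc8a1. A match describes letters and not a binding site, and no match says only that these letters are not in these windows.

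Slc8a1 had the largest SD over the arrays, 0.253. The named genes whose values were most like it over the 8 arrays were Unc80, a subunit of the sodium leak channel complex (r 0.965), Rgs18, a regulator of G protein signalling (r 0.956), and Diras2, a small Ras-like GTPase (r 0.951). They were picked as the highest r among all probes tested, so these values are descriptions. All 3 were highest on the same 2 arrays of their groups, Unc80 at 7.21 and 7.18, Rgs18 at 6.53 and 6.51 and Diras2 at 6.23 and 6.21. Over the 8 arrays Rgs18 spanned only 6.42 to 6.53 and Diras2 6.02 to 6.23. These are small steps at levels within those of the dim ryanodine receptor genes.

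The other genes of calcium storage and removal were taken from 10 lists of 77 genes, of which 70 were tested. None rose and none fell over all probes tested by limma. At an unadjusted p under 0.05 there were 7 of 70, against 8.10% of all probes. Of the 70, 42 differences were above 0 and 28 below, with a median of 0.013. The groups did not overlap for 3 of them, 4.29% against 4.95% of all probes, and these were Itpr3, Atp2c1 and Calb1.

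Among release channels, Itpr3, an IP3 receptor gene, read 6.55, 6.58, 6.61 and 6.55 in WT and 6.72, 6.65, 6.62 and 6.75 in Cav3.1 KO. It differed by 0.11 (SE 0.0353, limma adjusted p 0.371). Its spots were only 1.65 to 1.91 times the blank level, and the groups were parted only by 6.61 against 6.62. Itpr2 differed by 0.01 (SE 0.0331) near the blank level. Of the 5 further pump genes, Atp2c1, the calcium and manganese pump of the Golgi apparatus, had the largest difference. It read 7.21, 7.35, 7.44 and 7.26 in WT and 7.05, 7.14, 7.17 and 7.16 in Cav3.1 KO. It differed by -0.19 (SE 0.0538, 95% interval -0.31 to -0.06, limma adjusted p 0.323), and -0.22 and -0.29 within the scan-gain sets. Its relative Atp2c2 differed by 0.04 (SE 0.0272), at 1.13 times the blank level on average. The 6 further exchanger genes tested lay between -0.08 and 0.01. Slc8b1, the mitochondrial exchanger gene, was at -0.08 (SE 0.0401), with spots at 1.44 times the blank level on average. Slc24a2, a potassium-dependent exchanger gene of neurons, was at -0.07 (SE 0.0636), which ran from -0.11 to -0.02 with single arrays left out.

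The partners of these proteins showed the same absence of calls. Of 14 release channel partners, 8 were above 0 and 6 below. The smallest p-values among them were those of Trdn, which encodes the anchoring protein triadin (0.11, SE 0.0398, limma adjusted p 0.509), and Jph3, a junctophilin gene of neurons (-0.12, SE 0.0638, limma adjusted p 0.734). Ahcyl1, an IP3 receptor binding protein chosen after seeing its values, varied most, reading 9.41, 11.22, 8.85 and 9.73 in WT and 11.33, 9.81, 9.10 and 10.31 in Cav3.1 KO. Its high arrays, WT replicate 2 and Cav3.1 KO replicate 1, lay in both groups, and the difference of 0.34 had an SE of 0.592. Pln, which encodes the SERCA inhibitor phospholamban, differed by -0.06 (SE 0.0325), at 1.4 times the blank level on average. Pdzd11, a PMCA-binding protein gene, differed by -0.07 (SE 0.0395), and by -0.04 without Cav3.1 KO replicate 1.

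Inside the store, 6 of 11 calcium-binding protein genes were above 0 and 5 below. The chaperone gene Hspa5 differed by -0.33 (SE 0.210, limma adjusted p 0.831) and the reticulocalbin gene Rcn2 by 0.18 (SE 0.122, limma adjusted p 0.856). Both values rested largely on single arrays. Hspa5 was at -0.17 without WT replicate 2 and -0.20 without Cav3.1 KO replicate 1, and Rcn2 at 0.08 without the latter. Within the scan-gain sets Hspa5 was at -0.75 and -0.05 and Rcn2 at 0.47 and 0.10. Among 8 genes of store-operated entry, through which an empty store opens surface channels, the channel gene Orai3 differed by -0.20 (SE 0.0727, limma adjusted p 0.478) and the store sensor gene Stim2 by -0.24 (SE 0.127, limma adjusted p 0.745). Stim2 read 7.66 on Cav3.1 KO replicate 1 against 7.97 to 8.29 on the other Cav3.1 KO arrays, and without that array its difference was -0.12. Among 7 mitochondrial genes, Smdt1, a subunit gene of the uniporter, differed by 0.14 (SE 0.0737; 0.06 without Cav3.1 KO replicate 1) and the uniporter pore gene Mcu by -0.04 (SE 0.0268), close to the blank level.

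The kinase gene Itpka, whose product removes IP3 in dendritic spines, had the lowest difference of the 70 genes. It read 11.44, 11.75, 11.68 and 11.81 in WT and 10.84, 11.15, 11.20 and 11.52 in Cav3.1 KO. Cav3.1 KO replicates 1 to 3 lay below all WT arrays and replicate 4 did not. The difference was -0.49 (SE 0.140, 95% interval -0.82 to -0.17) with a limma adjusted p of 0.314. With scaling to the 75th percentile of each array in place of quantile normalisation it was -0.57 and passed the test (limma adjusted p 0.0195), the only call under any alternative among the 9 genes of the family and the 20 related genes for which the alternatives were run. Within the scan-gain sets it was -0.83 and -0.39. Markers of CA pyramidal neurons read 7.58, 7.74, 7.66 and 7.78 in WT and 7.35, 7.60, 7.54 and 7.55 in Cav3.1 KO, in the same order of arrays as Itpka within WT and likewise lowest on Cav3.1 KO replicate 1. The order of the other Cav3.1 KO arrays differed, with these markers highest on replicate 2 and Itpka on replicate 4. The part of the CA pyramidal markers in the Itpka values was not tested. Inpp5a, an IP3 phosphatase gene, differed by 0.14 (SE 0.0620, limma adjusted p 0.630), and by 0.08 without Cav3.1 KO replicate 3. Its spots were 1.75 times the blank level on average.

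The 3 cytosolic buffer genes were all above 0, with a median of 0.338. Calb1, the calbindin gene of granule neurons, read 9.59, 9.75, 9.36 and 9.58 in WT and 9.78, 9.78, 9.79 and 10.28 in Cav3.1 KO. The groups did not overlap, and Cav3.1 KO replicate 4 stood above the rest. The difference was 0.34 (SE 0.127, 95% interval 0.05 to 0.63, limma adjusted p 0.523). It was 0.15 within the lower-numbered chips, which leave out Cav3.1 KO replicate 4 and WT replicate 3, and 0.21 without the former alone. Within the scan-gain sets it was 0.14 and 0.59. Pvalb, the parvalbumin gene of interneurons, differed by 0.25 (SE 0.104, limma adjusted p 0.585), by 0.16 without WT replicate 2, and by 0.39 and -0.0034 within the scan-gain sets. Calb2, the calretinin gene, chosen after seeing its values, differed by 0.63 (SE 0.383) with its highest values, 8.88 and 8.78, on Cav3.1 KO replicates 2 and 3. Thalamus and habenula markers were highest on the same arrays, at 7.21 and 7.27 against 6.71 and 6.74 on the other Cav3.1 KO arrays. In WT they read 7.09, 7.14, 6.72 and 6.66. Interneuron markers, a list that includes Pvalb, ranged from 8.68 to 8.90 on the WT arrays, with 8.69 to 9.15 on the Cav3.1 KO arrays. With Pvalb left out the ranges were 8.87 to 9.19 and 8.87 to 9.37. The part of these markers in the buffer values was not tested.

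**Figure D4:**
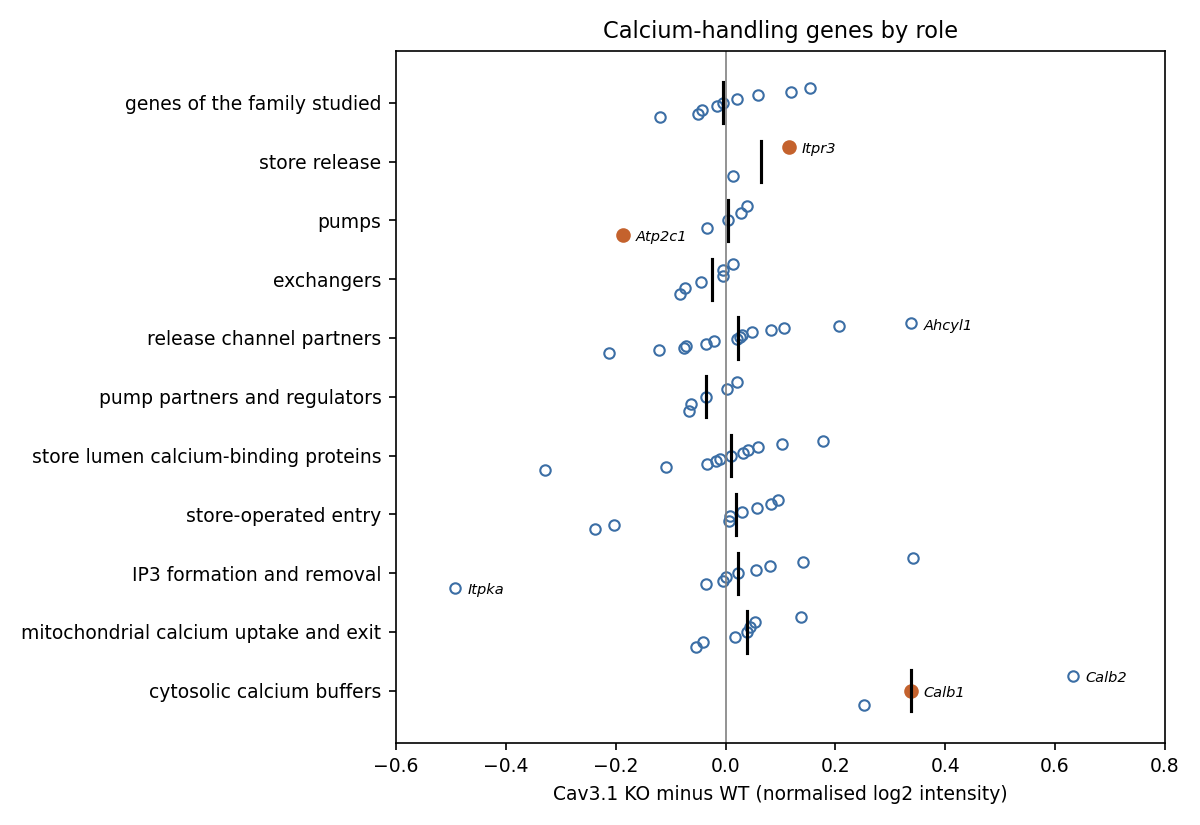
Difference between the genotypes (horizontal axis, Cav3.1 KO minus WT in normalised log2 intensity) for the 9 genes studied and 70 related genes by role. Filled points are genes whose groups do not overlap, black bars are medians of a list, and no gene shown passed the test over all probes.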

How the data were processed

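Spot intensities were measured on 8 arrays in 1 colour. Per the file headers, the deposited intensity is a median per spot with no normalisation; the sources used here do not say how 3 scan gains were merged. A column under a background heading followed its own spot (r of logarithms 0.994 to 0.996) and was not used. The deposited value table is on a linear intensity scale, a straight line of the spot values scaled to a median of 25.

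Background was corrected by normexp (offset 50) on all spots, control spots included, since no local background could be used as planned. Probe values were then log2 transformed and quantile normalised. Probes above the 95th percentile of blank spots on at least 4 arrays and not marked as bad at a gain were tested (21150; 2239 dim and 84 marked probes were left out). Genotypes were compared by limma 3.58.1 (R 4.3.3), adjusted by Benjamini-Hochberg over all probes, after a check on simulated data. The number of arrays limits the precision.

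The members and lists were chosen with earlier results of these data known. The rule named all members, Cacna1g and, per related list, genes past the threshold and the 2 with the smallest p. Alternatives covered background, scaling, filter, chip number, replicate number, test and single arrays, and the scan-gain set was added later. Replicate numbers did not pair the arrays (r of deviations -0.115 to 0.0109).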

Additional observations from a re-analysis of the deposited data

Results flagged for a closer look

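In 8 of the 58 groups of 4 arrays checked (9 genes of the family and 20 related genes in each genotype), 1 array stood apart from the other 3 by a gap test at the 95% level, which chance passes in about 1 in 20 groups. That rate is for independent groups. These groups share the same 8 arrays, and the 20 related genes were picked by their p in these data, so the count cannot be read against it. Atp2a2 stood apart in both groups, at 9.48 on WT replicate 2 (the others 9.11 to 9.16) and at 9.63 on Cav3.1 KO replicate 4 (the others 9.23 to 9.27). Ryr2 was at 6.51 on WT replicate 4, above 6.29 to 6.33. Atp2b4 was at 5.92 on WT replicate 4, where the other WT arrays were all at 5.96. Among related genes, Hspa5 was at 11.86 on WT replicate 2 (the others 11.19 to 11.23), Calb1 at 10.28 on Cav3.1 KO replicate 4 (9.78 to 9.79), Trdn at 7.12 on Cav3.1 KO replicate 4 (7.22 to 7.24) and Pvalb at 7.80 on Cav3.1 KO replicate 2 (8.01 to 8.03). Of the 8 values, 3 fell on Cav3.1 KO replicate 4.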

How the results depend on the processing

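Under the 27 alternatives run, 23 of them planned and 4 added after seeing the data, 0 of the 9 genes passed the test in either direction. Their median difference was -0.069 in the deposited value table, where the median over all probes was -0.063, and 0.061 without Cav3.1 KO replicates 2 and 3 together; it ran from -0.022 to 0.020 with single arrays left out. The count over all probes, 61, was 110 with 75th percentile scaling (56.4% of calls higher in Cav3.1 KO, against 68.9%). It was 36 with median scaling, 31 in the value table, 7 in the lower-numbered chips and 124 with array weights. The count was 17 without Cav3.1 KO replicates 2 and 3, and 31 without replicate 2 of WT and replicate 4 of Cav3.1 KO. With single arrays left out it ran from 16 to 49. With the replicate block it was 8; the numbers did not pair the arrays. With the scan-gain set as a block it was 23, and within either set 0 by limma. After blank subtraction 77.3% of calls were higher.

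Some signs changed. With 75th percentile scaling the differences were 0.03 for Ryr1, 0.04 for Slc8a2 and 0.01 for Mcu; with median scaling 4.2e-05 for Ryr1, -0.03 for Slc8a1 and 0.01 for Slc8a2. Slc8a1 was at -0.04 in the value table and -0.01 as a mean of its probes. In the lower-numbered chips it was at -0.10 and Atp2a2 at -0.02. Without Cav3.1 KO replicates 2 and 3, Ryr1 was at 0.01 and Atp2b1 at 0.06. Itpr2 was at -0.02 with the scan-gain block, -0.01 and -0.03 within the sets and -0.01 without replicate 2 of WT and replicate 4 of Cav3.1 KO. In the first set Ryr1 was at 0.01 and Ryr3 at 0.02; in the second Atp2b1 was at 0.11, Atp2b4 at -0.01, Slc24a2 at 0.03 and Pvalb, at 0.25 with all arrays, at -0.0034. With single arrays left out, Ryr1 ran from -0.05 to 0.0036, Slc8a1 from -0.11 to 0.14, Slc8a2 from -0.02 to 0.01, Atp2b1 from -0.13 to 0.02 and Itpr2 from -0.0035 to 0.03. The cause was not tested. Spots near the blank level limit Ryr1, Ryr2, Ryr3, Atp2b4 and Slc8a2.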
